A study of Caenorhabditis elegans with 2 samples.

Results

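The nuclear tRNA genes of Caenorhabditis elegans were examined for binding sites in chromatin immunoprecipitation and sequencing (ChIP-seq) against eGFP-tagged CES-1, the worm member of the Snail family of zinc finger regulators studied here. The members were all genes of biotype tRNA on the 6 nuclear chromosomes of the WBcel235 (ce11) annotation, 612 of 46890 nuclear genes and of 634 tRNA genes with the mitochondrial ones. Each gene was widened by 500 bp on either side, and it was called marked when the summit of a peak, its highest point, lay in that window. The worms were of strain OP174, in which the unc-119(ed3) mutant background is rescued by the integrated array wgIs174, carrying unc-119 and ces-1 fused to TY1, EGFP and FLAG. The tagged protein therefore came from an added transgene, and the same strain supplied both of the 2 biological replicates. Whole mixed-stage embryos of pooled sex were used, the antibody field names only ces-1, and the labels give a size range of 150 to 350. No list of control peaks and no untagged or mutant group was analysed here, so the comparisons below are between places in the genome. The thresholded list held 6290 peaks, of which 6273 were nuclear, and the relaxed list of pooled peaks held 30000 entries. Read depth is unknown, because the lists give no counts.

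tRNA genes are transcribed by RNA polymerase III from promoters that lie inside the gene. TFIIIC binds the internal A and B boxes and places TFIIIB just upstream of the 5′ end, and transcription stops at a run of T past the 3′ end. Snail proteins are known as repressors that bind E-boxes of the letters CAGGTG in promoters read by RNA polymerase II, and CES-1 is known for its part in the programmed death of the sister cell of a pharyngeal neuron.

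With introns removed, most tRNA genes had exact copies elsewhere, so identical sequences stood in different surroundings. Copies among the 29 genes with an intron can still differ within it. The 612 genes held 188 distinct sequences, and 58 of these had 2 or more copies, 482 genes in all. The following 3 gene sequences, from the RefSeq genome of WBcel235, are shown as examples with at least 10 copies each. They were chosen as the one with the most copies (proline) and those with the highest (arginine) and lowest (threonine) share of marked copies, among sequences that could be shown. Capitals mark the B box core, searched here with the letters GTTCNANNC on the gene strand, and each sequence is that of 1 of the identical copies.
tRNA-Arg-ACG: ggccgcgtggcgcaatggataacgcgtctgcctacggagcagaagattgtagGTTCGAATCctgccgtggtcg
tRNA-Pro-TGG: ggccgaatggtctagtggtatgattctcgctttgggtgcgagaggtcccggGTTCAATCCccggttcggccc
tRNA-Thr-AGT: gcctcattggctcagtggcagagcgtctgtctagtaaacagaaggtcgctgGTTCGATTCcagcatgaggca
The arginine copy lies at chrX:6220070-6220142 on the minus strand, the proline copy at chrII:10302399-10302470 on the plus strand and the threonine copy at chrII:3439219-3439290 on the minus strand. Of the 10 arginine copies, all on X, 6 were marked. The 24 proline copies had 8 marked, and the 15 threonine copies had 1. Each of these 3 genes was thus found both with and without a summit beside the same internal sequence.

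The flanking sequence is shown next, and its part in which genes were marked was not tested. The 60 bases upstream of 6 marked genes are shown, those with the strongest summits in that stretch outside annotated exons and head-to-head pairs. The capital letter is the summit base, and the last letter stands next to the first base of the tRNA gene.
W03G11.t1, tRNA-Lys-CTT: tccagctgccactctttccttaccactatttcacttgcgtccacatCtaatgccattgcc
C42D8.t1, tRNA-Ile-AAT: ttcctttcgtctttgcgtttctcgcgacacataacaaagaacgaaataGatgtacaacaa
F57F5.t1, tRNA-Ile-TAT: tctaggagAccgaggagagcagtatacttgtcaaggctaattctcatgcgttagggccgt
C06G1.t1, tRNA-His-GTG: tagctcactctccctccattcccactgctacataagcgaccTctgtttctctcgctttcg
C04E7.t1, tRNA-Leu-AAG: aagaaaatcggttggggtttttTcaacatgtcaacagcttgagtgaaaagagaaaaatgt
B0350.t1, tRNA-Lys-CTT: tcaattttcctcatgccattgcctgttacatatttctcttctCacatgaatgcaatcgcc
These stretches lie at chrX:12106220-12106279, chrX:5085696-5085755, chrV:12002116-12002175, chrX:16634902-16634961, chrX:353337-353396 and chrIV:5967100-5967159. The next 3 stretches precede unmarked copies of the tRNA-Pro-TGG gene printed above.
Y71H2AM.t1: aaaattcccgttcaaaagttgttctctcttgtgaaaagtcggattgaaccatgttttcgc
F02H6.t1: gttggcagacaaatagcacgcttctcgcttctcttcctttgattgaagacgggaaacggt
R11G10.t2: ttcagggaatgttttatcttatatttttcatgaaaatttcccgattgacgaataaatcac
They lie at chrIII:2711651-2711710, chrIV:14225042-14225101 and chrV:13507275-13507334. A marked pair of the same proline gene, F46G11.t2 and F46G11.t1, stands head to head at chrX:5801211-5801282 and chrX:5801472-5801543, and the summit between them was the strongest within 100 bp of a tRNA 5′ end. The 189 bases that separate them, chrX:5801283-5801471 on the plus strand, are printed with the 9 bases around the summit in capitals.
F46G11.t2 to F46G11.t1: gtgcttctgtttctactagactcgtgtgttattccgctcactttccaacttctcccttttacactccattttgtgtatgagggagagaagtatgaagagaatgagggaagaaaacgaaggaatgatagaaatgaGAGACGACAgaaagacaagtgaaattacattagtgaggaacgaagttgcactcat

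A thresholded summit lay within 500 bp of 128 of the 612 tRNA genes, a share of 20.9% with an exact 95% binomial interval of 17.8% to 24.4%. The same windows moved by 5 to 50 kb to either side served as the background, and 721 of 11864 of them held a summit, a share of 6.08%. The share at tRNA genes was 3.44 times as high. Intervals cover counting error only, and neighbouring genes can share a summit, so the genes are not independent. The 128 genes rested on 113 distinct summits, which were 1.80% of the nuclear peaks, and 15 summits were shared by 2 or more genes. The tRNA genes Y38E10A.t1 and C11G10.t1 were the 2 with more than 1 summit.

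The pooled relaxed list, which the authors made as input for their reproducibility step and which includes background, marked 264 tRNA genes, or 43.1% (39.2% to 47.2%). The moved windows reached 26.4%, so the ratio there was 1.63. Among relaxed entries with a deposited −log10 q of at least 2, 141 tRNA genes were marked, 23.0%, against 6.80% of moved windows. The 136 genes marked by the relaxed list alone had a median signal of 25.4, between 13.8 and 58.7, and 59 of them were matched in both replicates. The whole relaxed list had a median of 24.3, so the signal of these genes was near that of the list. Moved windows marked by the relaxed list alone were not counted, but 26.4% of moved windows held a relaxed summit and 6.08% a thresholded one. A further 348 tRNA genes had no summit in either list. Each replicate's own relaxed list marked 271 tRNA genes in replicate 1 and 261 in replicate 2, against 27.1% and 27.0% of moved windows, where the tRNA shares were 44.3% and 42.6%.

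The summits gathered at the 5′ ends of the tRNA genes. Of the 130 pairs of a gene and a summit, 81 had the summit within 100 bp of the 5′ end, and 50 had it 1 to 100 bp upstream. The summit lay upstream of the gene in 73 pairs, inside it in 29 and past its 3′ end in 28, and the median distance from the 5′ end was -11 bp, a negative value being upstream. Counted by genes, 81 of 612, or 13.2% (10.7% to 16.2%), had a summit within 100 bp of the 5′ end, against 1.34% of moved 5′ ends. The other 47 marked genes, 7.68% of all, had every summit farther away, against 4.74% of moved windows. Most of the gap between tRNA genes and moved windows thus came from this 100-bp zone.

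In bins of 50 bp, the 50 bases just upstream of the 5′ end held 38 thresholded summits, 6.21 per 100 tRNA genes, against 0.362 per 100 moved windows. The first 50 bases of the gene held 22, or 3.59 per 100, against 0.270 per 100 moved windows. On the relaxed list the same bins held 52 and 47 summits, 8.50 and 7.68 per 100 tRNA genes, against 1.52 and 1.60 per 100 moved windows. The genes for small nucleolar RNA (snoRNA), whose products guide RNA modification, had a similar peak just upstream, with 5.20 thresholded and 8.96 relaxed summits per 100 genes in the same 50 bases. A relaxed summit lay within 100 bp of the 5′ end of 148 tRNA genes, 24.2%, against 6.45% of moved 5′ ends. The position could be read in each replicate on its own. Replicate 1 had such a summit at 147 tRNA genes, 24.0%, and replicate 2 at 139, 22.7%, against 6.25% and 6.66% of moved 5′ ends. Of the 81 genes with a thresholded summit in this zone, 74 had one within 100 bp of the 5′ end in both replicate lists. The selection of thresholded peaks for agreement between the replicates favours such a match.

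**Figure D1:**
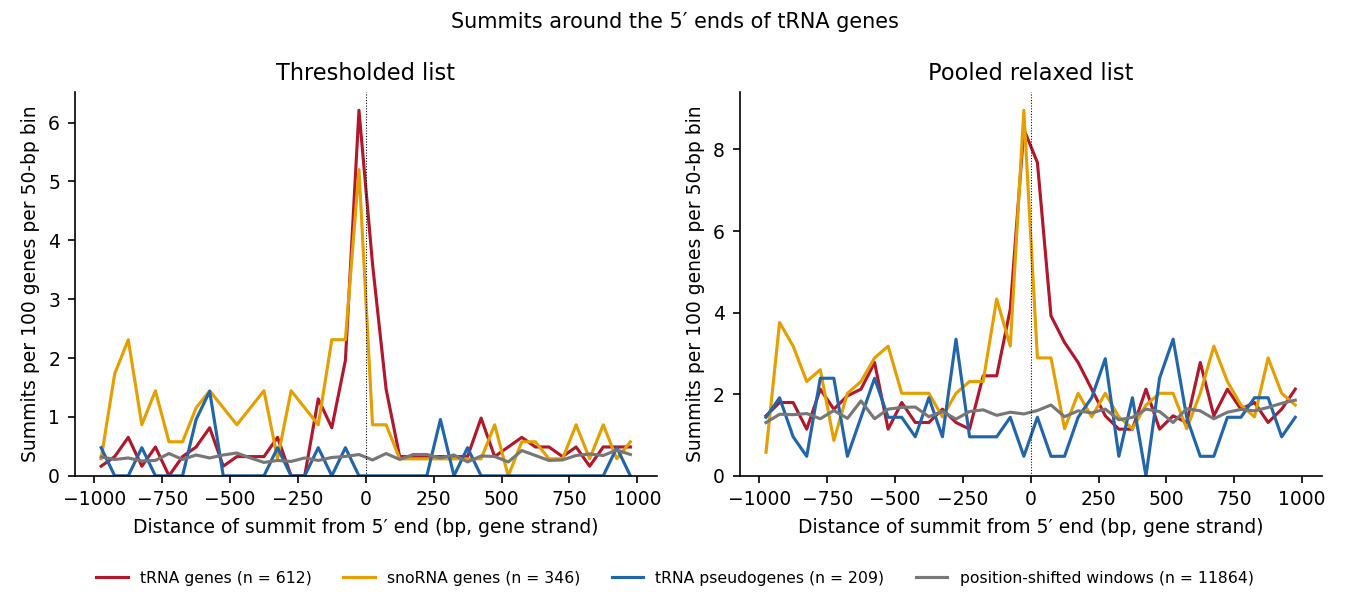
Thresholded (left) and pooled relaxed (right) summits per 100 genes in bins of 50 bp, by distance in bp from the 5′ end on the gene strand. The line of the 612 tRNA genes peaks at 6.21 and 8.50 per 100 genes in the 50 bases upstream of the 5′ end, and the snoRNA genes reach 5.20 and 8.96 there, while the tRNA pseudogenes and the moved windows have no such peak.

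tRNA pseudogenes, the 209 nuclear relics of tRNA genes that RefSeq annotates, gave a contrast within the same sequence family. Only 6 of them were marked, 2.87% (1.06% to 6.14%), against 4.61% of their own moved windows, and 1 of 209 (0.478%) had a summit within 100 bp of the 5′ end. On the relaxed list 26.8% of pseudogenes were marked, against 27.7% of their moved windows. The strict core letters GTTCGANNC of the B box were still present in 68.9% of pseudogenes, compared with 72.1% of tRNA genes and 0.261% of moved gene-length segments. The interval of the marked share of pseudogenes did not overlap that of tRNA genes. Few pseudogenes lie on X, where 0 of 29 were marked (upper limit 11.9%), against 27.2% of tRNA genes there. On the autosomes 6 of 180 were marked, 3.33% (1.23% to 7.11%), against 15.8% (12.04% to 20.1%) of tRNA genes. The relaxed list marked 2 of 29 pseudogenes on X (6.90%), where it marked 51.45% of tRNA genes and 29.9% of the moved windows of tRNA genes. For the autosomes it marked 54 of 180 pseudogenes (30%) and 36.3% of tRNA genes. How often pseudogene sequences occur in the genome was not checked, and its part in the contrast was not tested. Single autosomes were not compared.

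Other gene classes were set beside the tRNA genes separately on X and on the autosomes, because X carries a large part of the tRNA genes and few of most other classes. On the autosomes 53 of 336 tRNA genes were marked, 15.8% (12.04% to 20.1%), an interval that held the share of protein-coding 5′ ends, 13.0% (12.6% to 13.4%), taken over windows of the same median length, 1072 bp. SnoRNA genes had 20.4% there (64 of 313), long intergenic RNA (lincRNA) genes 20.5% (32 of 156), other non-coding RNA (ncRNA) genes 18.9% (990 of 5244), small nuclear RNA (snRNA) genes 15.1% (19 of 126) and microRNA genes 13.4% (25 of 187). On X the tRNA genes had 27.2% (22.0% to 32.8%), above the interval of protein-coding 5′ ends, 12.6% (11.6% to 13.6%). SnoRNA genes on X had 21.2% (7 of 33, 8.98% to 38.9%), ncRNA genes 21.7% (547 of 2520), lincRNA genes 15.8% (6 of 38) and microRNA genes 8.11% (6 of 74). Over all chromosomes the shares were 20.9% for tRNA genes, 20.5% for the 346 snoRNA genes and 13.0% for the 29304 protein-coding 5′ ends. A summit within 100 bp of the 5′ end was found at 13.2% of tRNA genes, 9.25% of snoRNA genes (32 of 346) and 2.68% of protein-coding 5′ ends. That zone misses the main position at protein-coding 5′ ends. Their thresholded summits were densest at -200 to -151 bp, with 1.64 per 100 ends, against 0.785 at -50 to -1 bp.

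**Figure D2:**
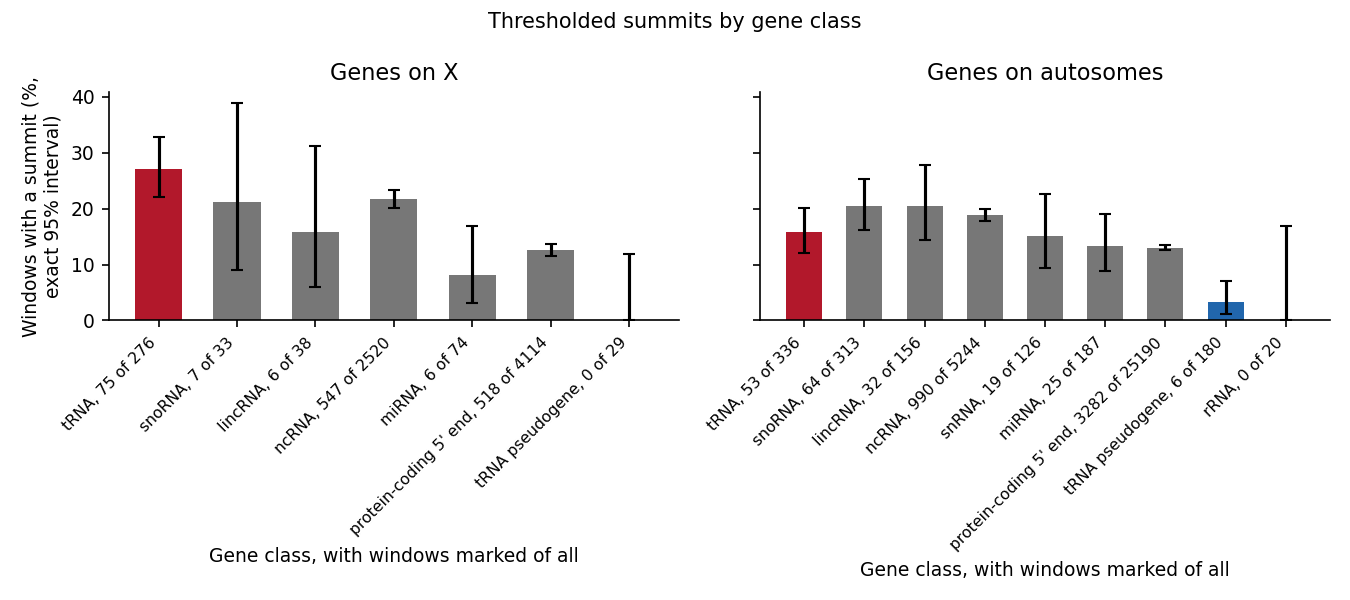
Share of windows with a thresholded summit (percent, with exact 95% intervals) by gene class on X (left) and on the autosomes (right), for classes of at least 10 genes there. tRNA genes have 27.2% on X and 15.8% on the autosomes, where snoRNA genes (20.4%) and lincRNA genes (20.5%) have more and 0 of 20 ribosomal RNA (rRNA) genes were marked.

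A protein-coding 5′ end within 1 kb could bring a peak of its own, so the genes were split by that. Of the 230 tRNA genes with such an end, 47 were marked, 20.4% (15.4% to 26.2%), against 7.53% of moved windows with one. Of the 382 without, 81 were marked, 21.2% (17.2% to 25.6%), against 5.11% of moved windows without one. The ratios were 2.71 and 4.15. On the relaxed list the shares were 43.5% with and 42.9% without, against 26.9% and 26.1% of moved windows. Position differed little as well, since 29 of 230 genes (12.6%) near a protein-coding end and 52 of 382 (13.6%) away from one had a summit within 100 bp of the tRNA 5′ end. The summits themselves lay less often in a protein-coding promoter window, from 1000 bp upstream to 200 bp downstream of a 5′ end: 29 of the 113 summits at tRNA genes (25.7%), against 44.6% of the 6160 others. No test was run on these differences.

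The X chromosome carries 45.1% of the nuclear tRNA genes on 17.7% of the nuclear sequence, and it held 58.6% of the marked ones. There 75 of 276 genes were marked, 27.2% (22.0% to 32.8%), against 7.18% of moved windows on X. The autosomes together had 53 of 336, 15.8% (12.04% to 20.1%), against 5.19% of their moved windows, so the ratio was 3.78 on X and 3.04 on the autosomes. Chromosome III had 18 of 64, 28.1% (17.6% to 40.8%), against 7.31% of its moved windows, and chromosome II had 11 of 57, 19.3% (10.05% to 31.9%), against 6.19%. Chromosome IV had 10 of 71, 14.1% (6.97% to 24.4%), against 3.01%. The lowest shares were on I and V. On I, 7 of 66 genes were marked, 10.6% (4.37% to 20.6%), against 6.84% of moved windows, a background that falls inside the interval; within 100 bp of the 5′ end, however, I had 5 of 66 (7.58%, 2.51% to 16.8%), against 1.23% of moved 5′ ends, outside the interval. On V, 7 of 78 were marked, 8.97% (3.69% to 17.6%), against 3.30%. Within 100 bp of the 5′ end, X had 48 of 276 genes (17.4%) and the autosomes 33 of 336 (9.82%), against 1.56% and 1.17% of moved 5′ ends.

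**Figure D3:**
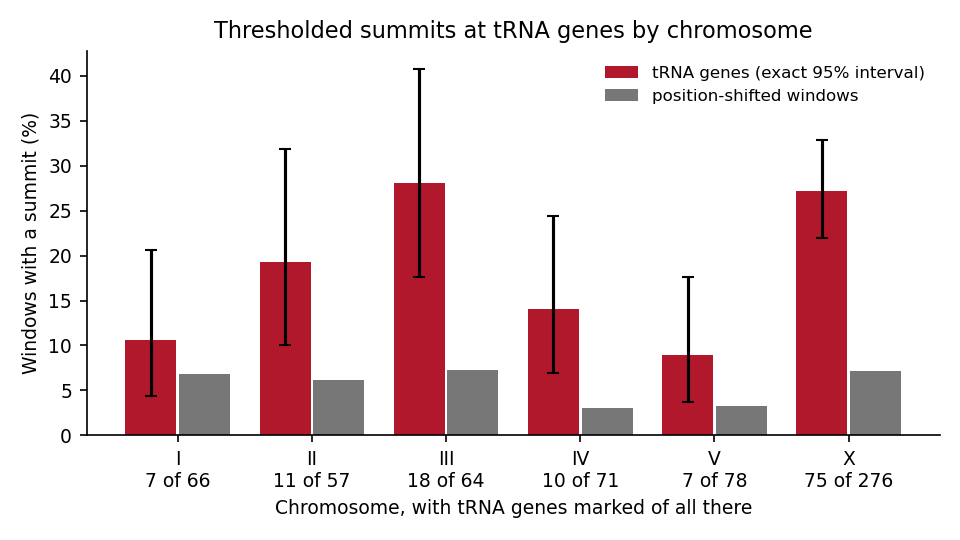
Share of tRNA genes with a thresholded summit (percent, exact 95% interval) and of position-shifted windows on each chromosome. X (27.2%) and III (28.1%) have the highest shares and V (8.97%) the lowest, and on I the interval includes the shifted share of 6.84%.

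By amino acid, no isotype was set apart from the overall share. The groups were small and their intervals wide, from 0.211% to 38.5% at tryptophan, so real differences could be missed. The anticodon, the triplet that reads the codon, was found by script in the gene sequence, and for 593 genes it gave the amino acid that RefSeq names. All 20 isotypes with at least 10 genes had an interval that included the overall share of 20.9%. Arginine tRNA genes were highest, with 14 of 44 marked (31.8%), followed by glutamate with 13 of 41 (31.7%) and leucine with 12 of 39 (30.8%). Tryptophan was lowest with 1 of 12 (8.33%), and histidine had 2 of 20 (10%). The 23 anticodons with at least 10 genes likewise all had intervals that held the overall share. Arg-ACG had 7 of 19 marked and Glu-TTC 6 of 17, while Lys-CTT had 3 of 30 and Gly-TCC, the most numerous, 4 of 36.

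**Figure D4:**
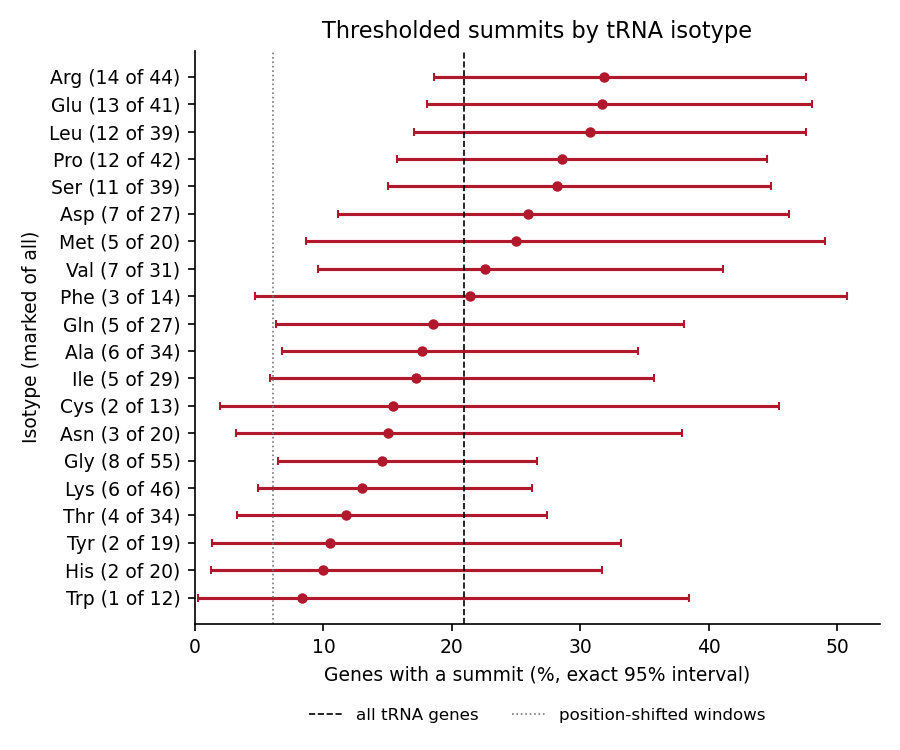
Share of genes with a thresholded summit (percent, exact 95% interval) for the 20 isotypes of at least 10 genes, highest at the top. Points run from 31.8% for arginine to 8.33% for tryptophan, and every interval crosses the dashed line of all tRNA genes.

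Marked shares differed with copy number, which was counted on sequences with introns removed. Genes whose sequence occurs once had 12 of 130 marked, 9.23% (4.86% to 15.6%), those with 2 to 9 identical copies 42 of 153, 27.5% (20.6% to 35.2%), and those with 10 or more 74 of 329, 22.5% (18.1% to 27.4%). Within 100 bp of the 5′ end the single-copy genes had 4 of 130, 3.08%, and the repeated ones 77 of 482, 16.0%. The interval of the single-copy genes, 0.845% to 7.69%, did not overlap that of the repeated ones, 12.8% to 19.6%. Genes that share a summit are not independent, no test was run, and the split was chosen after seeing the data. Both single-copy intervals held the background over all moved windows, 6.08% with a summit and 1.34% within 100 bp of a moved 5′ end. The intervals of the repeated genes lay above those shares. Moved windows were not split by copy number. Of the 58 repeated sequences, 42 had both marked and unmarked copies, 14 had none marked and 2, both of leucine, had all marked. Placing a short read depends on how often its sequence occurs, and the part of this in the result was not tested. The central 50 bases of the gene were found once in the genome for 103 tRNA genes and more than once for 509. A 50-base stretch centred 50 bp upstream of the 5′ end was unique for 586 genes, of which 128 were marked. It does not reach the bases next to the gene, whose uniqueness was not checked. At the other 26, where that stretch repeats, 0 were marked, which allows a share of up to 13.2% by the exact interval. A 50-base stretch centred on the summit was unique for 92.0% of the 113 summits at tRNA genes, against 99.7% of the others.

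The 3 sequences printed first show the range among identical copies. The 6 marked copies of the arginine gene had signals of 910 at C18A11.t2, 157 at F12D9.t4, 83.3 at F09B9.t2, 79.2 at T06H11.t2 and T06H11.t3, which share a summit, and 64.0 at C14F11.t1. Only C14F11.t1, T06H11.t2 and F09B9.t2 of these had the summit within 100 bp of the 5′ end, at -30, 62 and 13 bp. The marked copies of the proline gene had signals of 609 at the pair F46G11, 130 at ZK899.t1, 112 at C16B8.t1, 70.5 at the pair W09D6 on chromosome III, 69.7 at H06A10.t1 and 62.8 at C48C5.t1, all on X apart from W09D6. Beside F46G11.t1 at -51 bp and W09D6.t2 at 29 bp, ZK899.t1 and H06A10.t1 had the summit within 100 bp of the 5′ end, at -2 and 11 bp. The other 16 proline copies, 9 of them on the autosomes, had no summit in the relaxed list either. The 1 marked threonine copy, ZK563.t1 on X, had a signal of 146 at -16 bp, and 5 unmarked copies had a relaxed summit. Replicate signals ran in the same order at the extremes: replicates 1 and 2 had 28.0 and 32.9 at C14F11.t1, and 452 and 456 at C18A11.t2.

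Surroundings were compared in the same way. Intergenic tRNA genes had 75 of 319 marked (23.5%, interval 18.97% to 28.6%) and those in introns of protein-coding genes 51 of 283 (18.0%, 13.7% to 23.0%). By strand, intronic or exonic genes read in the direction of the host had 31 of 170 marked (18.2%), and those on the opposite strand 22 of 123 (17.9%). Genes with another tRNA gene nearby in the same direction had 25 of 95 marked (26.3%), tail-to-tail neighbours 10 of 49 (20.4%) and genes with no near neighbour 82 of 376 (21.8%). Head-to-head genes, which share 1 upstream region, had the lowest share at 11 of 92 (11.96%, 6.12% to 20.4%). On X that count was 9 of 43 and on the autosomes 2 of 49. The 29 tRNA genes with an intron had 6 marked (20.7%), close to the 122 of 583 without one (20.9%).

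The B box letters split the marked genes from the unmarked ones little, and the A box was not searched. The core letters GTTCGANNC on the gene strand were in 441 tRNA genes, of which 96 were marked (21.8%), and absent from 171, of which 32 were (18.7%). Among single-copy genes, 5 of 77 with the core were marked (6.49%) and 7 of 53 without it (13.2%). Repeated genes went the other way, with 91 of 364 (25%) and 25 of 118 (21.2%), and in both groups the intervals overlapped. The same core with G before it and C after it gave 82 of 394 marked with them (20.8%) and 46 of 218 without (21.1%). A terminator of TTTT within 50 bp past the 3′ end was present at 605 of 612 tRNA genes, so that 7 genes lacked it, too few to compare. Of moved segments, 51.6% had one. GC content of the 100 bp upstream moved with the calls: its median was 46% at marked genes, 41% at unmarked ones and 34% in the moved windows. The same order held on X, with 45% at marked and 38% at unmarked genes, and on the autosomes, with 46% and 43%. The part of GC content in the result was not tested.

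The Snail-type E-box CAGGTG, or CACCTG on the other strand, lay in 27.1% of tRNA windows and in 23.5% of moved windows. Genes with it had 35 of 166 marked (21.1%), and genes without it 93 of 446 (20.9%). Within 50 bp of the summit it was found at 6 of the 113 summits at tRNA genes, 5.31% (1.97% to 11.2%), against 107 of the 6160 others, 1.74% (1.43% to 2.09%). The contrast rested on X, with 5 of 64 summits at tRNA genes (7.81%), against 1.32% of the others there. For the autosomes it was 1 of 49 (2.04%), against 1.855%. In 3 of those 6 cases the letters were part of a tRNA gene. The genes named next were picked after their values were seen. Of these summits the strongest, with a signal of 222, stood 191 bp upstream of C02B4.t2, a tyrosine tRNA gene on X. Serine genes were C29F7.t2, F02D10.t2 and E03E2.t1, with signals of 90.9, 83.6 and 82.7. The count is small, and the other 107 summits at tRNA genes had no such letters within 50 bp. No background share was counted for stretches of that length away from summits, so an excess over the genome was not tested.

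Peak signal is the authors' deposited value, of no stated scale, and was used only within a list. Summits at tRNA genes had a median signal of 99.5, with quartiles of 77.0 and 152 and a range from 59.1 to 910, against a median of 119 for the other summits, with quartiles of 81.5 and 197. In the 500 strongest peaks of the list there were 7 summits at tRNA genes, 6.19% of the 113, compared with 7.91% of the others. The 79 summits within 100 bp of a tRNA 5′ end had a median of 99.5 and a highest value of 609. The 34 summits farther away had a median of 104 and an upper quartile of 217. A summit within 100 bp of the thresholded one was present in both replicate lists for 107 of the 113 summits at tRNA genes (94.7%), against 94.5% of the others. Thresholded peaks had been selected for agreement between these same replicates, so a high match was favoured in advance and is no separate check. The log2 ratio of replicate 2 to replicate 1 signal had an SD of 0.58 over those summits and 0.57 over the others.

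The strongest summit in a tRNA window had a signal of 910, rank 44 in the list, with 452 in replicate 1 and 456 in replicate 2. It lay 364 bp past the 5′ end of the arginine gene C18A11.t2 at chrX:8036685-8036757, 292 bp beyond its 3′ end. The summit between the head-to-head proline genes F46G11.t2 and F46G11.t1, whose separating bases are printed above, had a signal of 609, with 273 in replicate 1 and 335 in replicate 2. It stood 139 bp upstream of the first and 51 bp upstream of the second. On chromosome III the strongest was at T28D6.t2, a valine gene at chrIII:11353628-11353700, with 539, or 246 and 293 in replicates 1 and 2. On chromosome II it was at Y38E10A.t1, an alanine gene at chrII:12678314-12678385, with 503, or 256 and 252. Both of these summits lay outside the 100-bp zone, 162 bp past the 5′ end of T28D6.t2 and 198 bp upstream of Y38E10A.t1. The Y38E10A.t1 summit had the highest signal of the 29 summits at tRNA genes that lay in a protein-coding promoter window. T28D6.t2 had no protein-coding 5′ end within 1 kb.

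Closest to its gene among the strong ones was the summit of the lysine gene W03G11.t1 at chrX:12106147-12106219, 14 bp upstream, with 401, or 189 and 218 in replicates 1 and 2. A second lysine gene, W07G4.t1, in an intron of the cadherin gene fmi-1 at chrV:13027028-13027100, had 399.5, or 179 and 218.5, but its summit was 204 bp beyond the 3′ end. The methionine gene F27E11.t1 at chrV:3455326-3455398 had 372, the glutamine gene R04A9.t1 at chrX:410391-410462 had 292 and the glycine and glutamate genes M02F4.t1 and M02F4.t2, head to head at chrX:3036164-3036235 and chrX:3035976-3036047, shared a summit of 290.0. ZK678.t1, a leucine gene at chrX:15742050-15742133, completed the 10 strongest summits with 271. At each of these 10 summits, from a list selected for replicate agreement, the higher replicate signal was under 1.5 times the lower one. The strongest summits on the remaining chromosomes were weaker, with 226 at the valine gene F58D5.t1 on I and 203 at the glutamine gene C06E4.t1 on IV.

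**Figure D5:**
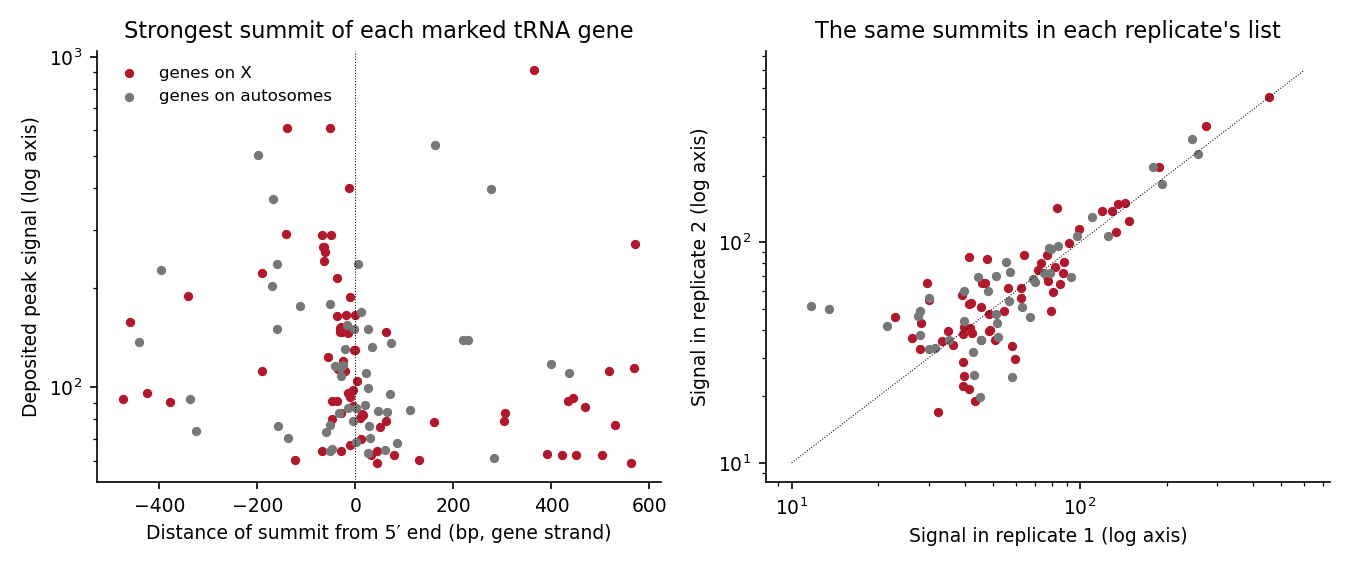
Left, deposited signal (log axis) of the strongest summit of each of the 128 marked tRNA genes by its distance in bp from the 5′ end; right, the signal of the same summits in the lists of replicate 1 and replicate 2 (log axes, dotted line of equal values), for those in both lists. Points crowd at the 5′ end at signals mostly under 300, and the strongest, 910, lies 364 bp past it.

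The count of marked genes moved with the window limit, from 104 at 250 bp to 128 at 500 bp and 162 at 1000 bp. Just inside the limit of 500 bp were ZK678.t1, F59C12.t1 and ZK154.t4, whose nearest thresholded summits lay 488, 491 and 498 bp from the gene. Just outside were B0491.t2, T14G8.t1 and C48C5.t3, at 535, 537 and 570 bp. The tightest runs of 5 marked genes were both on X, which is also where tRNA genes are densest, and they were not compared with the spacing of unmarked genes. The tightest run of 5 spanned 99672 bp, chrX:16590395-16690066, with F59C12.t1, F59C12.t3, F59C12.t2, C06G1.t1 and F22H10.t1, and the first 2 of these shared a summit of 59.1. The tightest run that was separate from it spanned 183631 bp, chrX:12937701-13121331, with C05E7.t1, C05E7.t2, C53C7.t2, C53C7.t1 and F17H10.t1. There the glutamine pair C05E7 shared a summit of 91.0 and the serine pair C53C7 one of 266, while the glycine gene F17H10.t1 had 62.3, so this run rested on 3 summits.

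Protein genes that make or mature tRNA were looked up as a list of 43 symbols, of which 37 matched the annotation. A thresholded summit lay in the promoter window of 7 of them, 18.9%, beside 16.2% of all 19973 protein-coding genes, so the share was near the background. The strongest was 973 bp upstream of popl-1, a subunit of the RNase P complex that trims the 5′ ends of tRNA precursors, with a signal of 776, or 354 and 422 in replicates 1 and 2. The gene trm-1, a tRNA methyltransferase, had 459, tftc-1, a TFIIIC subunit, had 232 and xpo-3, the exportin of tRNA, had 169. The RNA polymerase subunit genes, rpb-10 and rpc-11, had 162 and 58.7, and pus-1, a pseudouridine synthase, had 79.0. Of the 9 genes for TFIIIB, TFIIIC and regulators, tftc-1 alone was marked, and of the 11 matched polymerase subunits 2 were.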

How the data were processed

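The lists are narrowPeak files of 2 biological replicates, used as deposited. Per the deposited notes on the libraries, the authors made relaxed lists for each replicate and for the pooled replicates, then selected among the pooled ones by their irreproducible discovery rate (IDR), which compares peak ranks between replicates. The sources used here do not name the aligner or peak caller. Each peak has a signal, a score deposited by the authors with no stated scale. The deposited −log10 q was used for a minimum of 2. The summit offset deposited by the authors was added to the peak start and counted from 1. The ce10 lists were not used, and no coordinate was converted.

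Genes came from Ensembl release 115 on WBcel235, isotypes and pseudogenes from RefSeq, matched by WormBase identifier for all 612 genes. Moved windows that left the chromosome or met a tRNA window were dropped. Neighbouring tRNA genes are those within 1 kb. Shares have exact 95% binomial intervals (SciPy 1.17.1; Python 3.11.15, pandas 2.3.3, numpy 2.4.6, matplotlib 3.10.9). The summit calls and distances were tested on simulated data. The shares are described without a test. Named genes are those of the 10 strongest summits, the strongest of each chromosome, the 3 on either side of the window limit, the 2 tightest separate runs of 5 marked genes and marked members of the protein list. The members, lists and alternatives were chosen with earlier results of these data known, and the looser B box letters, the sequences shown (none from chromosome I, and no tRNA gene printed whole has an identical copy there), the copy-number split and the near-5′ counts by group were chosen after seeing the data.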

Additional observations from a re-analysis of the deposited data

Results flagged for a closer look

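Outside the nuclear genome, 17 thresholded peaks lay on the mitochondrial genome, which none of the comparisons used. A summit lay within 500 bp of 18 of the 22 mitochondrial tRNA genes, and inside 0 of them. The windows of those genes cover 68.2% of that genome, so the count describes where the peaks lie and is not comparable with the nuclear share. No control list was analysed here.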

How the results depend on the processing

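Of 108 recomputed values, 78 stayed inside the interval of the value as reported (or, for counts, within 1.5 times it), 30 moved outside it, and the ratio of all tRNA genes to moved windows lay between 2.41 and 4.72. Some of the 78 could not move, since the share within 100 bp of the 5′ end does not depend on window width or on counting overlaps. With windows of 250 bp the share of tRNA genes was 17.0% and its ratio to moved windows 4.72 (5.42 with no protein-coding 5′ end within 1 kb), X had 20.7%, the relaxed share was 35.95%, and snoRNA genes, microRNA genes and protein-coding 5′ ends had 14.7%, 6.90% and 8.63%. With 1000 bp the share was 26.5%, the ratios 2.41 and 2.87, X 34.8%, genes with no protein-coding end 26.7%, the relaxed share 54.9%, and tRNA pseudogenes, snoRNA genes, microRNA genes and protein-coding 5′ ends had 6.70%, 30.9%, 18.4% and 17.6%. With the 3000 strongest peaks the share was 8.17%, the ratios 2.69 and 3.08, the shares with and without a protein-coding end 8.26% and 8.12%, X 10.5%, the autosomes 6.25%, and 5.07% of genes had a summit within 100 bp of the 5′ end; that list is shorter by construction. Counting any overlap of peak and window gave a ratio of 2.83. A protein-coding end within 2 kb gave 3.35 for genes without one. Relaxed entries with −log10 q of at least 2 gave 23.0%. Matching replicate summits within 50 bp gave 77.0%. The causes of the other moves were not tested.

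Leaving out either replicate, by taking the 6290 strongest peaks of the other, gave shares of 19.4% and 20.8%, ratios of 3.09 and 3.52, and 12.3% and 13.1% within 100 bp of the 5′ end. All 14 of the genes with the 10 strongest summits or the strongest of a chromosome kept a summit there, and 11 did with windows of 250 bp. Further choices were made after seeing the data: genes with a unique upstream stretch gave 21.8%, and leaving out head-to-head genes gave 22.5%. Read depth is unknown, and single isotypes and chromosomes hold too few genes for narrow intervals.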

Other observations

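Other transcripts outside the tRNA genes were measured with the same 500-bp windows. Over all chromosomes, lincRNA genes had 38 of 194 marked (19.6%), ncRNA genes 1537 of 7764 (19.8%), snRNA genes 14.7% and microRNA genes 11.9%, while 0 of 20 ribosomal RNA genes were marked, with an exact upper limit of 16.8%. Among repeated tRNA sequences with no marked copy, the largest were a leucine gene with anticodon AAG in 7 copies, with 0 relaxed summits, and a glutamine gene with anticodon CTG in 5 copies, of which 3 had a relaxed summit.

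Summits within 100 bp of the 5′ end were also counted by amino acid, a split chosen after seeing the data. The shares ran from 23.1% of leucine genes (9 of 39, interval 11.1% to 39.3%), 20.5% of serine genes (8 of 39) and 19.5% of glutamate genes (8 of 41) to 3.70% of glutamine genes (1 of 27, interval 0.0937% to 18.97%). Every interval overlapped the others at these sizes. On III 10 of 64 genes (15.6%) and on V 3 of 78 (3.85%) had such a summit, against 1.75% and 0.660% of moved 5′ ends.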
